A study of Mus musculus with 6 samples.

Results

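The NADPH oxidase genes measured here were the phagocyte oxidase subunit genes Cybb, Cyba, Ncf1, Ncf4 and Rac2 and the related oxidase gene Nox4, in pancreatic islets of hIAPP_Tg mice and wild-type mice. They were chosen by symbol: every probe set (a group of short probes that read 1 transcript region) annotated to exactly 1 of 7 symbols was taken. That gave 12 of the 45037 probe sets tested, 10 for the phagocyte oxidase genes and 2 for Nox4. The seventh symbol, Nox1, which encodes an oxidase known mainly from colon epithelium, was not analysed here, so the comparison of the phagocyte oxidase with other oxidases rested on Nox4.

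The islets came from 3 hIAPP_Tg mice (mice 4, 5 and 6) and 3 wild-type mice (mice 1, 2 and 3), each on its own Affymetrix array. All mice were labelled as 12 weeks old (10 to 12 weeks in the design text), on standard chow, and both genotypes were given 1 strain name, FVB/N-Tg(Ins2-IAPP)RFHSoel/J, which stands for a human islet amyloid polypeptide transgene under an insulin promoter. Human islet amyloid polypeptide, unlike the mouse form, readily forms amyloid, and the promoter places it in beta cells. The tissue label held: on the list of beta cell markers 7 of 9 genes were measured, none lay under the array median, and Ins2 stood at 15.1 on every array. The brightest mouse Iapp probe set read 14.9, 15.0 and 15.0 in hIAPP_Tg islets, against 14.9, 15.0 and 14.9 in wild-type islets, but mouse probes need not read the human transcript, so this checks nothing of the genotype.

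The phagocyte oxidase is the enzyme with which macrophages and neutrophils make superoxide. Its catalytic subunit, encoded by Cybb, sits in the membrane with a small partner encoded by Cyba, and cytosolic subunits with a Rac GTPase join the pair when the cell is activated. Nox4 also pairs with the Cyba product but is active without the cytosolic subunits, and it is known from kidney, endothelium and mesenchymal cells. In islets, resident macrophages are the usual phagocytes.

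The membrane subunits were the members with separated genotypes. All values are log2 RMA values (a log2 expression scale normalized across arrays), and differences are hIAPP_Tg minus wild type. Genotypes were compared with limma, and p-values were adjusted by the Benjamini-Hochberg method over the whole array. None of the 12 was called at an adjusted p of 0.05, where 0.0289% of all probe sets were. At an unadjusted p under 0.05, 4 of the 12 were higher in hIAPP_Tg islets and 0 were lower, against 3.82% higher over all probe sets. The same 4, all 3 of Cybb and the 1 of Cyba, had genotypes that did not overlap, against 3.44% of all probe sets not overlapping with hIAPP_Tg higher. The other 8 overlapped or tied.

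Cybb encodes the glycoprotein that carries electrons from NADPH across the membrane. Its brightest probe set, 1436778_at, read 7.7, 7.9 and 8.0 in hIAPP_Tg islets, against 7.0, 6.9 and 7.0 in wild-type islets. The lowest hIAPP_Tg array was thus clear of the highest wild-type array, and the wild-type arrays lay closer together (SD 0.058) than the hIAPP_Tg arrays (SD 0.15). The log2 difference was 0.90 (SE 0.090, n = 3 each), a 1.87-fold higher level in hIAPP_Tg islets with a 95% interval of 1.60 to 2.17, and the limma adjusted p was 0.0854. By unadjusted p this probe set ranked 23rd of those tested.

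The other Cybb probe sets lay the same way with smaller differences. Probe set 1422978_at read 6.0, 6.2 and 5.7 in hIAPP_Tg islets, against 5.2, 5.4 and 5.4 in wild-type islets, a log2 difference of 0.63 (SE 0.14, limma adjusted p = 0.431). Probe set 1436779_at read 5.3, 5.1 and 5.1 in hIAPP_Tg islets, against 4.9, 4.7 and 4.9 in wild-type islets, a log2 difference of 0.33 (SE 0.090, limma adjusted p = 0.503). The genotypes did not overlap on either, but the smallest gap between them was 0.3 on 1422978_at and 0.2 on 1436779_at, where the deposited values have a step of 0.1. The probe sets did not order the hIAPP_Tg mice alike, since mouse 6 had the highest value on 1436778_at and the lowest on 1422978_at. Both dimmer probe sets lay under the array median of 5.7 in wild-type islets, where a signal is not known to be above background and RMA compresses differences. With the 3 probe sets averaged, the Cybb difference was 0.62 (SE 0.060, limma adjusted p = 0.0604).

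Cyba encodes the membrane partner that stabilizes the catalytic subunit and docks the cytosolic ones. Its probe set, 1454268_a_at, read 6.4, 6.4 and 6.8 in hIAPP_Tg islets, against 6.0, 5.7 and 5.7 in wild-type islets. The genotypes did not overlap, with mouse 6 the highest of the hIAPP_Tg mice and mouse 1 the highest of the wild-type mice. The log2 difference was 0.73 (SE 0.14, n = 3 each), or 1.66-fold with a 95% interval of 1.31 to 2.11, and the limma adjusted p was 0.410. In bulk islets, more cells of a type and more RNA per cell cannot be told apart, for this gene as for the others.

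**Figure D1:**
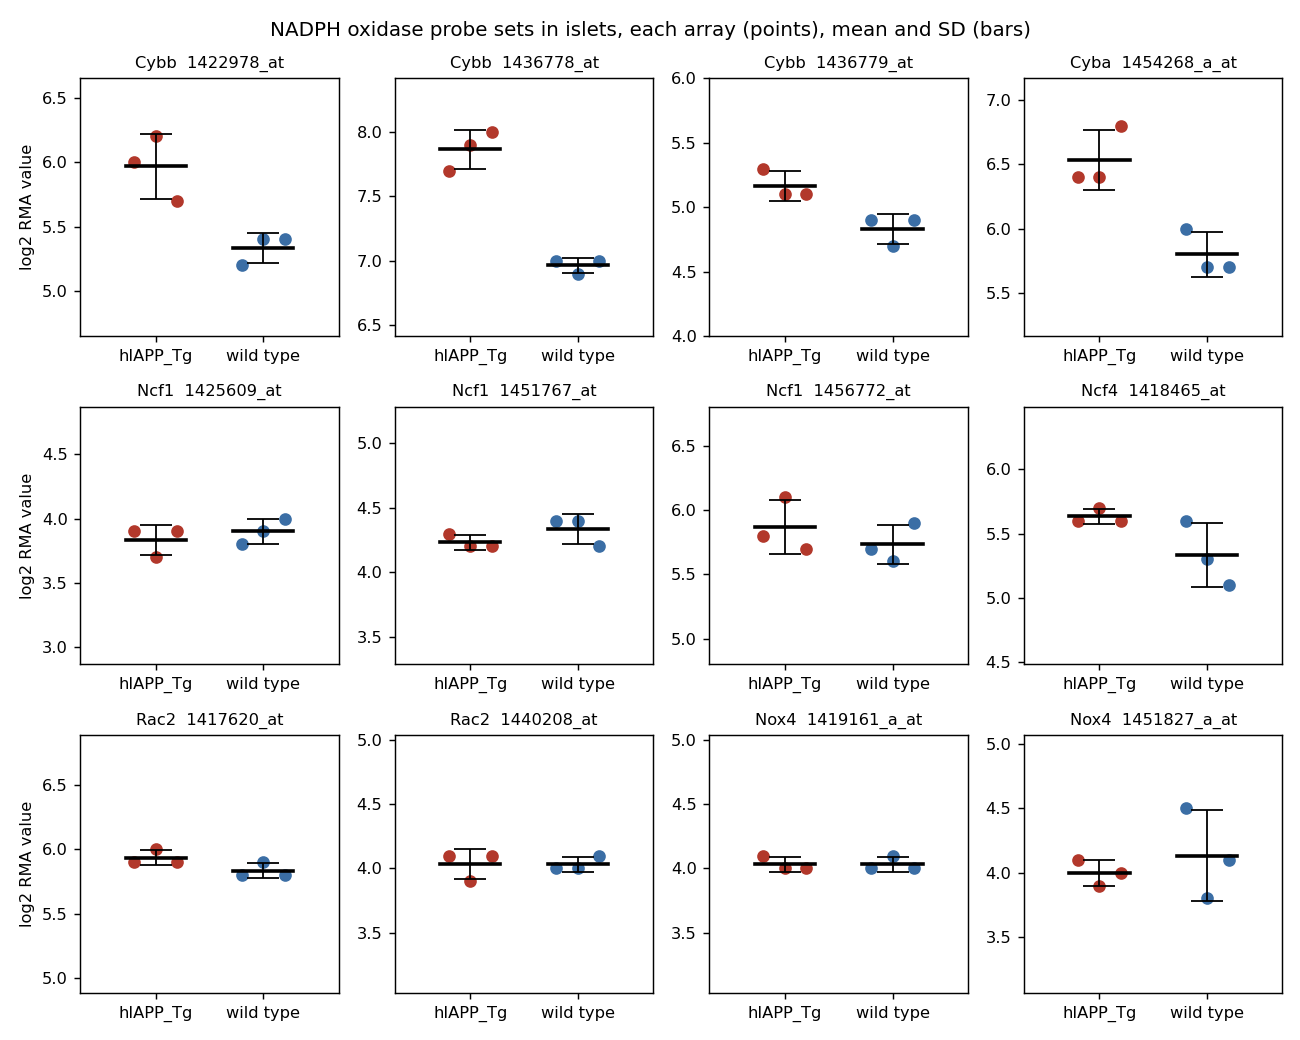
Log2 RMA values (vertical axis, each panel spanning 2 units) of the 12 oxidase probe sets on the hIAPP_Tg and wild-type arrays (horizontal axis). Points are single arrays, in the order mice 4, 5, 6 and mice 1, 2, 3, the long bars are means and the capped lines SD (n = 3 each). The genotypes are apart in the 3 Cybb panels and the Cyba panel, and overlap or tie in the other 8.

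The genes of the cytosolic subunits had smaller differences. Ncf4 encodes a subunit that binds a phosphoinositide of the phagosome membrane. Its probe set, 1418465_at, read 5.6, 5.7 and 5.6 in hIAPP_Tg islets, against 5.6, 5.3 and 5.1 in wild-type islets. The genotypes met at 5.6, the value of wild-type mouse 1, and the hIAPP_Tg arrays were close together (SD 0.058) while the wild-type arrays were spread out (SD 0.25). The log2 difference was 0.30 with a 95% interval of -0.013 to 0.61 (limma adjusted p = 0.632). Without wild-type mouse 1 it was 0.43 (limma adjusted p = 0.431), and without wild-type mouse 3 it was 0.18 (limma adjusted p = 0.791).

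Ncf1 encodes the organizer subunit that is phosphorylated on activation and carries the others to the membrane. Its brightest probe set, 1456772_at, read 5.8, 6.1 and 5.7 in hIAPP_Tg islets, against 5.7, 5.6 and 5.9 in wild-type islets. The genotypes overlapped, and the log2 difference of 0.13 had a 95% interval of -0.18 to 0.45. The other Ncf1 probe sets, 1425609_at and 1451767_at, read 3.7 to 3.9 and 4.2 to 4.3 in hIAPP_Tg islets, against 3.8 to 4.0 and 4.2 to 4.4 in wild-type islets. Both lay under the lower quartile of the arrays (4.4 to 4.5) or at it, with differences of -0.067 and -0.10, so the direction of Ncf1 differed between its probe sets. Averaged over the 3, it was -0.011.

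Rac2 encodes the Rac GTPase of blood cells, which switches the assembled oxidase on. Its brighter probe set, 1417620_at, read 5.9, 6.0 and 5.9 in hIAPP_Tg islets, against 5.8, 5.9 and 5.8 in wild-type islets. The spread within each genotype was small (SD 0.058 in both), the genotypes overlapped at 5.9, and the log2 difference was 0.10 with a 95% interval of -0.052 to 0.25. The dimmer probe set, 1440208_at, read 3.9 to 4.1 in hIAPP_Tg islets, against 4.0 to 4.1 in wild-type islets, a difference of 0. That level is within the lowest quartile of the arrays.

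Nox4 was dim in both genotypes. Probe set 1451827_a_at read 4.1, 3.9 and 4.0 in hIAPP_Tg islets, against 4.5, 3.8 and 4.1 in wild-type islets, and 1419161_a_at read 4.1, 4.0 and 4.0 in hIAPP_Tg islets, against 4.0, 4.1 and 4.0 in wild-type islets. The genotypes overlapped on both, and wild-type mouse 1 alone reached 4.5. The log2 differences were -0.13 (95% interval -0.56 to 0.29) and 0 (95% interval -0.15 to 0.15), and only 15.7% and 15.0% of all probe sets had a lower mean. At such a level a probe set may not read its transcript above background, so a small interval there does not bound the change of the transcript.

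The change with genotype was set between the phagocyte genes and Nox4 gene by gene, with the brightest probe set of each. The Nox4 probe set lay under the array median on all 6 arrays, so the values below do not bound how the Nox4 transcript differed. Relative to Nox4, the difference of Cybb was larger by 1.03 (SE 0.22) and that of Cyba by 0.87 (SE 0.19), and for both pairs the array values did not overlap between genotypes. In the exact two-sided permutation test over the 6 arrays both had p = 0.10, the smallest that 3 against 3 allows (0.25 after Benjamini-Hochberg adjustment over the 5 pairs), so this test cannot reach 0.05 with 6 arrays. For Ncf4 the excess over Nox4 was 0.43 (SE 0.18, exact permutation p = 0.20), for Ncf1 0.27 (SE 0.26, exact permutation p = 0.60) and for Rac2 0.23 (SE 0.25, exact permutation p = 0.50). All of these pairs overlapped. Without wild-type mouse 1 the excess was 0.067 for Ncf1 and 0.033 for Rac2, and without wild-type mouse 2 that of Rac2 was 0.43. Without hIAPP_Tg mouse 5 it was 0.10 for Ncf1 and 0.15 for Rac2, and with probe sets averaged 0.056 and 0.12. For Cybb and Cyba the excess was 0.69 and 0.80 with probe sets averaged. Without single arrays it ran from 0.87 to 1.17 for Cybb and from 0.73 to 0.98 for Cyba. Part of each value is the -0.13 of Nox4 itself, which rests on mouse 1: without that mouse the Nox4 difference was 0.05.

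**Figure D2:**
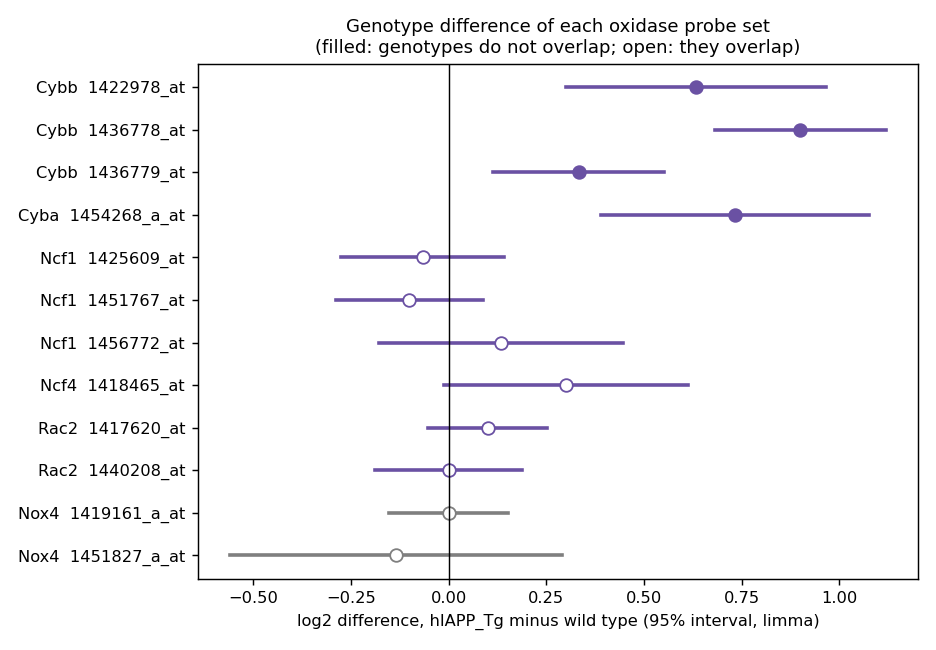
Log2 difference, hIAPP_Tg minus wild type (horizontal axis), of the 12 oxidase probe sets (vertical axis), with limma's 95% interval. Filled points mark genotypes that did not overlap and grey marks Nox4. The intervals of the 3 Cybb probe sets and of Cyba lie above 0, and the other 8 hold 0.

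Over the 10 phagocyte probe sets the median difference was 0.22, with 7 above 0, 2 below and 1 at 0. With 1 brightest probe set a gene, all 5 lay above 0, with a median of 0.30 and a range of 0.10 to 0.90. Over all probe sets tested, not reduced to 1 a gene, the median was 0. Of these, 44.7% (20138) lay above 0, 19643 below and 5256 at 0. Many members were dim: 6 of the 12 member probe sets were under the array median on every array, and 8 were on every wild-type array.

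The stretches before the gene starts are shown because Cybb and Cyba had separated genotypes while Nox4 did not. They are the 250 bases upstream of the start, 5′ to 3′ on the strand of the gene, from RefSeq on build GRCm38.p6, and 4 of the 6 measured members had an entry. A pair of motifs was chosen for search with the values known, on both strands of the full 300-base window of each entry: CCAAT, the box bound by NF-Y, and GAGGAA, a core form of the site of PU.1, a transcription factor of myeloid cells. Capitals mark a match within the printed bases.
Cybb, chrX:9469325-9469574, minus strand: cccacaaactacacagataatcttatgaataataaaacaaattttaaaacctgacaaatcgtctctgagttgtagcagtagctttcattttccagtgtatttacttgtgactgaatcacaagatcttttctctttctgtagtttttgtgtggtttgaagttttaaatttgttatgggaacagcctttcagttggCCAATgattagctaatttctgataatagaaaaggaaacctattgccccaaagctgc
Cyba, chr8:122432941-122433190, minus strand: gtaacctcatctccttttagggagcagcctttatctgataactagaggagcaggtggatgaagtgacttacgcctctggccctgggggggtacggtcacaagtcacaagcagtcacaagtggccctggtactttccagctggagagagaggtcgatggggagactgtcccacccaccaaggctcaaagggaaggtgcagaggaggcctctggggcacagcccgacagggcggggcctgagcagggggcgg
Nox4, chr7:87246399-87246648, plus strand: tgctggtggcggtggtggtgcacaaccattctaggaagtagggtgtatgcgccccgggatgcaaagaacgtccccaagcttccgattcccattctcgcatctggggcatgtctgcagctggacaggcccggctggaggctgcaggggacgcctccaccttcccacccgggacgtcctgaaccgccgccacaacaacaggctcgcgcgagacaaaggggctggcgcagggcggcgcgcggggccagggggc

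Cybb was the only one of the 4 with a match. CCAAT was found 56 to 52 bases before its start, and GAGGAA on the opposite strand 10 to 15 bases after it, in the part not printed. Of 32851 such windows, 37.4% held CCAAT, 28.3% held GAGGAA and 10.3% held both, so neither is rare. The printed bases also differed in makeup. G and C made up 34% of those of Cybb, 60% of those of Cyba and 67.2% of those of Nox4, where the median of all entries over the same 250 bases was 52.4% and 3.87% of them were below Cybb. A match is a string of letters here, and a missing match says nothing of the factor.

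The other genes of the oxidase system were taken from a list of 30, of which 24 were measured. None passed the limma test over all probe sets, against 0.0289% of all probe sets. With the brightest probe set of each, 14 lay above 0 and 10 below, and the median difference was 0.067. At an unadjusted p under 0.05, 2 were higher and 1 was lower in hIAPP_Tg islets, against 7.33% of all probe sets in either direction.

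These were genes of signalling to the oxidase. Pik3r5, the regulatory subunit of a phosphoinositide kinase downstream of chemoattractant receptors, read 5.8, 5.9 and 5.9 in hIAPP_Tg islets, against 5.6, 5.6 and 5.5 in wild-type islets (difference 0.30 on the log2 scale, SE 0.063, limma adjusted p = 0.419). Arhgdib, which holds Rac proteins in the cytosol of blood cells, read 5.8, 6.1 and 6.0 in hIAPP_Tg islets, against 5.8, 5.5 and 5.7 in wild-type islets (difference 0.30, SE 0.11, limma adjusted p = 0.620). The genotypes of Pik3r5 did not overlap and those of Arhgdib tied at 5.8. Prkca, a protein kinase C that phosphorylates the organizer subunit, read 9.6, 9.5 and 9.5 in hIAPP_Tg islets, against 9.8 on each wild-type array (log2 difference -0.27, SE 0.057, limma adjusted p = 0.419). Its other probe sets differed by -0.10 and 0.13, so the direction was not shared. For Irf8, a myeloid transcription factor, the dimmer probe set read 5.4, 5.2 and 5.4 in hIAPP_Tg islets, against 5.0, 4.9 and 5.1 in wild-type islets (difference 0.33, SE 0.086, limma adjusted p = 0.503), and the brighter one differed by 0.10.

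The remaining pathway genes named here had genotypes that overlapped. Rac1, the Rac GTPase of most cell types, differed by 0.067 on its brightest probe set, with a 95% interval of -0.071 to 0.20, and Rap1a, a small GTPase found with the membrane subunits, by -0.10 (95% interval -0.32 to 0.12). The suffix of that Rac1 probe set marks probes that can read more than 1 transcript. Cybc1, the chaperone of the membrane pair, differed by -0.033 (95% interval -0.24 to 0.18). Noxo1, the organizer of Nox1, differed by 0.13, the dual oxidase gene Duox1 by -0.13 and Poldip2, a partner of Nox4, by 0.033. Spi1, which encodes PU.1, differed by -0.10 (95% interval -0.35 to 0.15). Nox3, Duox2, Noxa1, Arhgdia and Cebpe were not analysed here.

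**Figure D3:**
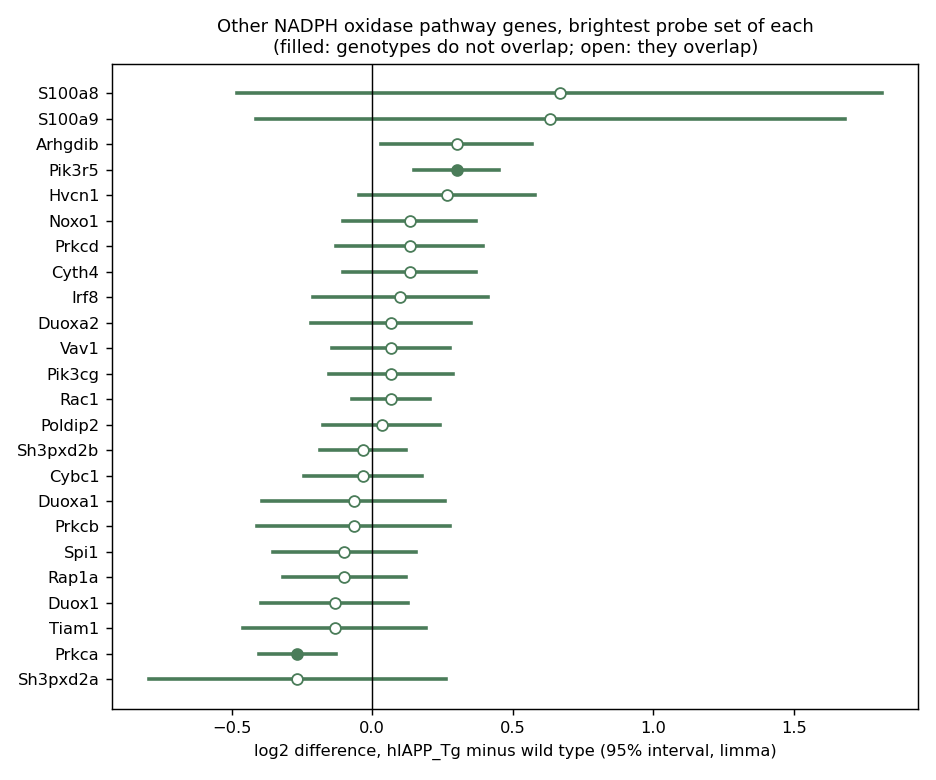
Log2 difference, hIAPP_Tg minus wild type (horizontal axis), of 24 other genes of the oxidase system (vertical axis), brightest probe set of each, with limma's 95% interval. Filled points mark genotypes that did not overlap. Pik3r5 (0.30) and Prkca (-0.27) are the filled ones, and the widest intervals are those of S100a8 and S100a9.

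Macrophage markers stood higher in hIAPP_Tg islets along with Cybb and Cyba. Of the 20 markers of macrophages and monocytes, all measured, 18 were higher and 2 lower in hIAPP_Tg islets, with a median difference of 0.90 and 15 whose genotypes did not overlap with hIAPP_Tg higher (3.44% of all probe sets). Their summed level was 153.7 to 156.4 on the hIAPP_Tg arrays, against 135.0 to 138.5 on the wild-type arrays. Mpeg1 and Tyrobp were the 2 of the 20 that passed the limma test, against 0.0289% of all probe sets. The brightest were Ctss, a cathepsin gene (1.13), the complement gene C1qa (0.57) and the lysozyme gene Lyz2 (2.47). Fcgr1, Itgam and Mrc1 lay under the array median on every array, and Fcer1g differed by -0.033. The part of these cells in the Cybb and Cyba values was not tested.

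Neutrophils use the same oxidase, and most of their markers were low. Of 13 markers 11 were measured, 6 higher, 4 lower and 1 at 0, with a median difference of 0.033. The genotypes of 1, Csf3r, did not overlap, with hIAPP_Tg higher (3.44% of all probe sets). Their summed level was 55.9 to 59.5 on the hIAPP_Tg arrays, against 55.0 to 56.6 on the wild-type arrays, and Camp, Csf3r, Cxcr2, Elane, Ltf and Mmp8 lay under the array median on every array. The top of the hIAPP_Tg range was mouse 5. S100a8 and S100a9, which encode a calcium-binding pair of neutrophils that promotes oxidase assembly, were named after their values were seen. S100a8 read 4.5, 6.3 and 4.6 in hIAPP_Tg islets, against 4.5, 4.3 and 4.6 in wild-type islets, and S100a9 read 4.6, 6.1 and 4.4 in hIAPP_Tg islets, against 4.3, 4.4 and 4.5 in wild-type islets. Mouse 5 alone was high for both. Without mouse 5, the brightest Cybb probe set differed by 0.88 and Cyba by 0.80. The part of neutrophils in the Cybb and Cyba values was not tested.

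Lymphocyte markers (10 of 12 measured) had a median difference of 0, 4 higher and 4 lower, and summed to 50.9 to 51.8 on the hIAPP_Tg arrays, against 51.1 to 52.1 on the wild-type arrays. Among cell types known for Nox4, endothelial markers (8 of 8 measured) had a median difference of -0.067 and summed to 66.4 to 67.0 on the hIAPP_Tg arrays, against 67.3 to 67.9 on the wild-type arrays. Markers of pericytes, stellate cells and fibroblasts (10 of 10 measured) had a median of -0.22, with 3 higher and 7 lower in hIAPP_Tg islets. They summed to 83.3 to 84.7 on the hIAPP_Tg arrays, against 82.5 to 89.2 on the wild-type arrays. Wild-type mice 2 and 3 summed to 82.5 and 82.6, below every hIAPP_Tg array. The 89.2 was wild-type mouse 1, which had the highest value on the Nox4 probe set 1451827_a_at (4.5). On 1419161_a_at it read 4.0, where hIAPP_Tg mouse 4 and wild-type mouse 2 read 4.1. Whether the marker level and Nox4 are related was not tested.

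Acinar markers, from exocrine tissue carried along with islets, differed by a median of -1.10 (6 of 10 measured, all 6 below 0, none passing the limma test). They summed to 55.0 to 68.8 on the hIAPP_Tg arrays, against 62.4 to 71.9 on the wild-type arrays. Beta cell markers differed by a median of -0.067, those of other endocrine cells (4 of 6 measured) by -0.050 and duct markers (5 of 6 measured) by 0.

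The genes whose array values were most like those of the brightest Cybb probe set were found by the root mean square distance over the 6 arrays, with each gene centred on its mean. Among 783 candidate genes, the nearest were Fyb and Fermt3 (distance 0.126 each on the log2 scale). Wfdc17 (0.146), Crispld2 (0.150), Ctss (0.157), Plxnc1 (0.161), Tsc22d3 (0.163) and Ms4a6b (0.170) came next. Their own genotype differences ran from 0.63 (Tsc22d3) to 1.13 (Ctss), and none passed the limma test. Differences of this direction and size follow from the choice by likeness to Cybb. Fyb read 6.5, 6.9 and 7.1 in hIAPP_Tg islets, against 6.1 on each wild-type array. Fermt3 read 6.8, 7.3 and 7.0 in hIAPP_Tg islets, against 6.2, 6.0 and 6.1 in wild-type islets. Among the hIAPP_Tg mice, Fyb put mouse 6 highest, like Cybb, while Fermt3 put mouse 5 highest. Of the 8, Ctss is on the macrophage list.

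**Figure D4:**
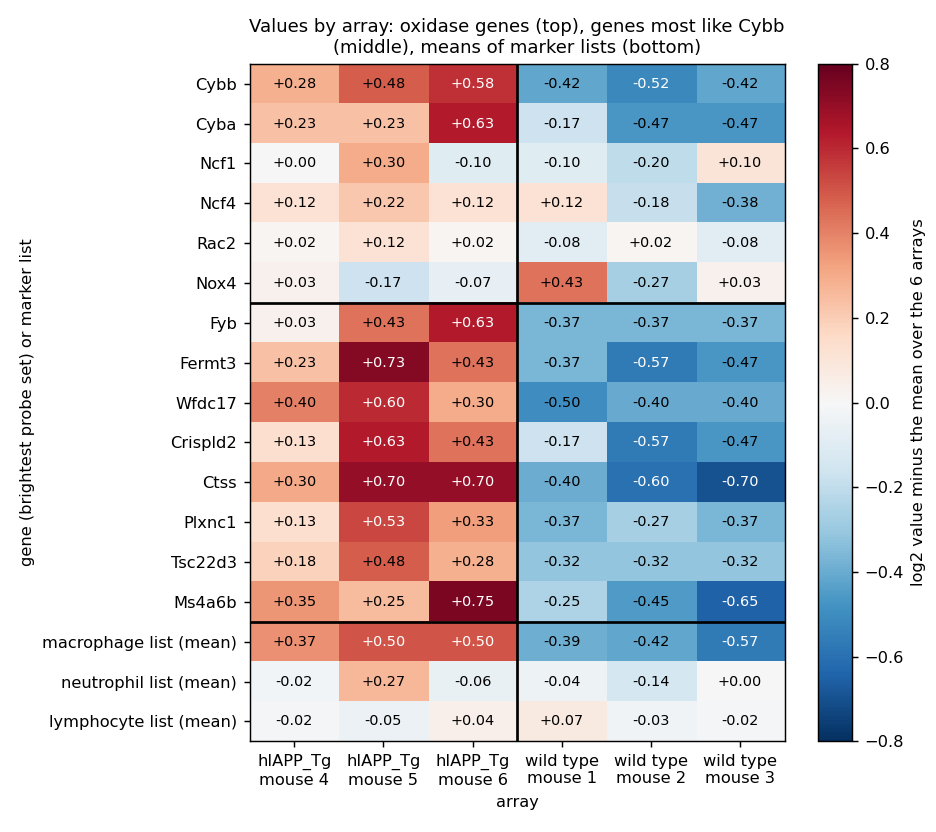
Log2 values minus their mean over the 6 arrays (colour and printed numbers), for the brightest probe set of each oxidase gene (top), the 8 genes most like Cybb (middle) and the means of 3 marker lists (bottom), by array (horizontal axis). Cybb, Cyba and the macrophage list are above their means on every hIAPP_Tg array and below on every wild-type array, and Nox4 is highest on wild-type mouse 1.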

How the data were processed

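Affymetrix arrays of islet RNA from 3 hIAPP_Tg and 3 wild-type mice were used, grouped and numbered by sample title; the labelling started from 150 ng of RNA per the labels. The deposited values are log2 expression values of 45101 probe sets, made by the authors with RMA (affy package), as the submitters' processing notes say. Neither comes with a version. They run from 2.9 to 15.1 in steps of 0.1, with a median of 5.7 on every array. Arrays give no read depth, so precision is set by their number. Litters are not stated in these sources.

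After removal of 64 control probe sets, 45037 were compared by genotype with lmFit and eBayes of limma 3.58.1 (R 4.3.3), two-sided and without covariates, with Benjamini-Hochberg adjustment over all of them and a threshold of 0.05. The fit was tested on simulated data. Symbols came from the platform annotation (34945 probe sets with 1 symbol, 932 with several, 9160 unnamed here), and the Entrez numbers of all 6 measured members were found in the RefSeq table of GRCm38.p6. The brightest probe set over all arrays stood for a gene where 1 was needed. Differences between genes were tested by exact permutation in SciPy 1.17.1. Likeness was taken over genes with an SD of at least 0.3 over the arrays.

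All 7 symbols' probe sets were to be named, with the pathway genes at an unadjusted p under 0.05, 10 fixed pathway genes, up to 3 brightest markers of a list, and the 8 genes nearest to Cybb. Members, lists and tests were chosen with earlier results of these data known. Alternatives were 2 filters on dim probe sets, median centring, quantile normalization, 2 other variance priors and array weights. No moderation, averaged probe sets and leaving out each array were tried too. Median centring could not differ from the main setting, since every array had a median of 5.7. For the gene pairs, the probe set with the largest absolute difference was also taken. It was the brightest one for every gene, so this setting could not differ either. Plots were made in Python 3.11.15 with matplotlib 3.10.9.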

Additional observations from a re-analysis of the deposited data

How the results depend on the processing

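No member probe set turned round under the alternatives except dim or flat ones: averaging its probe sets gave Ncf1 a difference of -0.011, and leaving out wild-type mouse 1 gave Nox4 (1451827_a_at) one of 0.05 (-0.30 to 0.05 without single arrays). The brightest Cybb probe set passed the threshold in 3 settings, so that 1 member was called: quantile normalization (0.88, adjusted p = 0.0418), array weights (0.91, adjusted p = 0.0435) and the robust prior (0.90, adjusted p = 0.0211). Over all its alternatives its limma adjusted p ran from 0.0211 to 0.697, and its difference without single arrays from 0.83 to 0.98. That of Cyba ran from 0.60 to 0.83. Without single arrays, 0 members were called each time and 4 to 5 had an unadjusted p under 0.05. That count was 2 with either dim filter, which leave 4 and 2 member probe sets, and 2 of 6 genes with probe sets averaged. Over the whole array 13 probe sets passed, against 30 with quantile normalization, 26 with array weights, 51 with the robust prior, 128 without moderation and 1 to 4 without single arrays. No pathway gene passed in any setting. The gene pairs kept their direction in all settings, of which median centring and the choice of probe set could not differ. Their exact permutation p stayed above 0.05, which the permutation test forces at this number of arrays. No paired analysis was possible, since each mouse has 1 genotype and the sources state no litters by which to pair mice. Both Nox4 probe sets and some of Ncf1 and Rac2 were dim, and differences of these transcripts could go undetected there.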
